A study of Mus musculus with 4 samples.

Results

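The TAM receptors Tyro3, Axl and Mertk and their ligands Gas6 and protein S, which is encoded by Pros1, were followed in the dentate gyrus (DG) of mice given repeated electroconvulsive stimulation (ECS) or the selective serotonin reuptake inhibitor (SSRI) fluoxetine. All probe sets annotated to these 5 genes were taken, which gave 7 of the 22626 probe sets other than controls, for 5 of 12393 genes named. Tyro3 and Axl had 2 probe sets each, and Mertk, Gas6 and Pros1 had 1 each. A signal filter (average of all arrays 50 or more) was passed by 5 of the 7 and by 13422 probe sets in all. The genes were chosen on the higher Tyro3 signal after fluoxetine, so that every value of the comparison of fluoxetine with vehicle is a description.

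Total RNA of DG from C57Bl/6 mice was pooled within each group, and each pool was measured on an Affymetrix 430A 2.0 expression array. By the methods, the mice were males of 8 weeks at purchase. The ECS group received 11 sessions of bilateral shock under isoflurane anesthesia, and the sham group served as its control without stimulation. The fluoxetine group drank fluoxetine at 22 mg/kg per day for 4 weeks in a solution with 0.2% saccharin, and the vehicle group is labelled as given water for 28 days. DG of fluoxetine-treated mice with a small frequency facilitation at the mossy fiber synapse was selected for the array (n = 3), the number of mice in the other pools is not given in the sources used here, and the labels put the ECS and sham samples at 6 h after the last session whereas the methods state 24 h. With 1 array per group there are no replicates, no test could be run, and no difference carries a p-value or SD. In pooled tissue, fewer cells of a type and less RNA per cell cannot be told apart.

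TAM receptors are receptor tyrosine kinases whose extracellular part resembles an adhesion molecule. Their ligands bind phosphatidylserine, a lipid that dying cells and some synaptic membranes expose, through a vitamin K-dependent domain, and so bridge these membranes to the receptor. In the brain, Mertk and Axl are known for the clearance of apoptotic cells by microglia, Mertk also for the engulfment of synapses by astrocytes, and Tyro3 for its expression in neurons and its part in myelination. Gas6 binds all the TAM receptors, whereas protein S, also a plasma anticoagulant, binds Tyro3 and Mertk.

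The signals are linear intensities whose overall level differed between arrays, with a trimmed mean of 249.9 on the ECS array, 261.0 on the sham array, 414.1 on the fluoxetine array and 373.6 on the vehicle array. Each treated array was therefore divided by the control array of its own experiment, and the ratio was expressed as log2. Over the probe sets past the signal filter the median log2 ratio was -0.10 for ECS and 0.12 for fluoxetine, and levels were compared across all 4 arrays only after each was centred on its median. As a yardstick, a control spread was derived for each probe set from how far sham and vehicle differed, once centred, among the 500 probe sets of closest brightness. It is not a replicate error, since it includes the different handling of both control groups. Differences of at least 1.5-fold were counted.

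Of the receptor probe sets past the filter, that of Tyro3 was the one with a higher signal after fluoxetine. The Tyro3 probe set 1425248_a_at had a signal of 55.4 after ECS and 47.6 in the sham pool, and of 155.5 after fluoxetine and 52.3 in the vehicle pool. The signals of the ECS, sham and vehicle pools lay near the limit of 50, on arrays whose overall level differed. The log2 ratio of this probe set was 1.57 for fluoxetine, a 2.97-fold difference, and 0.22 for ECS, at a control spread of 0.32. This probe set ranked below 126 of the 13422 in its fluoxetine ratio, which is no result, since Tyro3 was chosen on it. After centring, its order of levels was vehicle, sham, ECS and fluoxetine, with steps of 0.37, 0.33 and 0.75 on the log2 scale, so that the step from ECS to fluoxetine was more than the control spread and the others were close to it. Sham and vehicle thus differed by 0.37, and with the control arrays exchanged (fluoxetine over sham and ECS over vehicle, centred) the log2 ratios were 1.08 for fluoxetine and 0.70 for ECS.

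The other Tyro3 probe set, 1425249_a_at, had a mean signal of 49.2 and so fell just below the filter, while 1425248_a_at, with a mean of 77.7, was the member nearest above it. The signals of 1425249_a_at were 35.2 after ECS and 32.3 in the sham pool, and 80.4 after fluoxetine and 48.7 in the vehicle pool. It was highest in the fluoxetine pool as well, but with a log2 ratio of 0.72, which was 0.85 smaller than that of the brighter probe set. With signals below 50 taken as 50, the fluoxetine ratios were 1.57 and 0.68 for the brighter and the dimmer probe set, and the ECS ratios 0.15 and 0.00. The mean over both probe sets was 1.15 for fluoxetine. The direction was shared by both probe sets, and the size was not.

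Mertk, the receptor of phagocytes and astrocytes, had lower signals in both treated pools, by more than its control spread. Its signal was 178.5 after ECS and 286.1 in the sham pool, and 286.1 after fluoxetine and 373.4 in the vehicle pool. The log2 ratio was -0.68 for ECS, which corresponds to a 1.60-fold lower signal, and -0.38 for fluoxetine, at a control spread of 0.20. After centring, the ratios were -0.57 and -0.51, both under 1.5-fold (1.49-fold for ECS), and the order of levels was fluoxetine, ECS, vehicle and sham. The step between the treated and the control pools was 0.45, while the steps within them, 0.06 and 0.12, were smaller than the control spread. Both treated pools thus lay below both control pools, as they did for 22.4% of all probe sets past the filter.

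Axl, the TAM receptor that binds Gas6 but not protein S, had nearly equal signals within each experiment. Its probe set 1423586_at had 113.7 after ECS and 115.0 in the sham pool, and 198.9 after fluoxetine and 201.6 in the vehicle pool. The log2 ratios of -0.02 for both comparisons were small beside the control spread of 0.25, and after centring they were 0.09 and -0.14. The control pools differed by more than that, with sham below vehicle by 0.31. The other Axl probe set, 1438621_x_at, had signals of 3.9 to 8.7 on all 4 arrays. These are far below 50, and its log2 ratio of 1.16 for fluoxetine became 0.00 with the floor of 50.

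**Figure D1:**
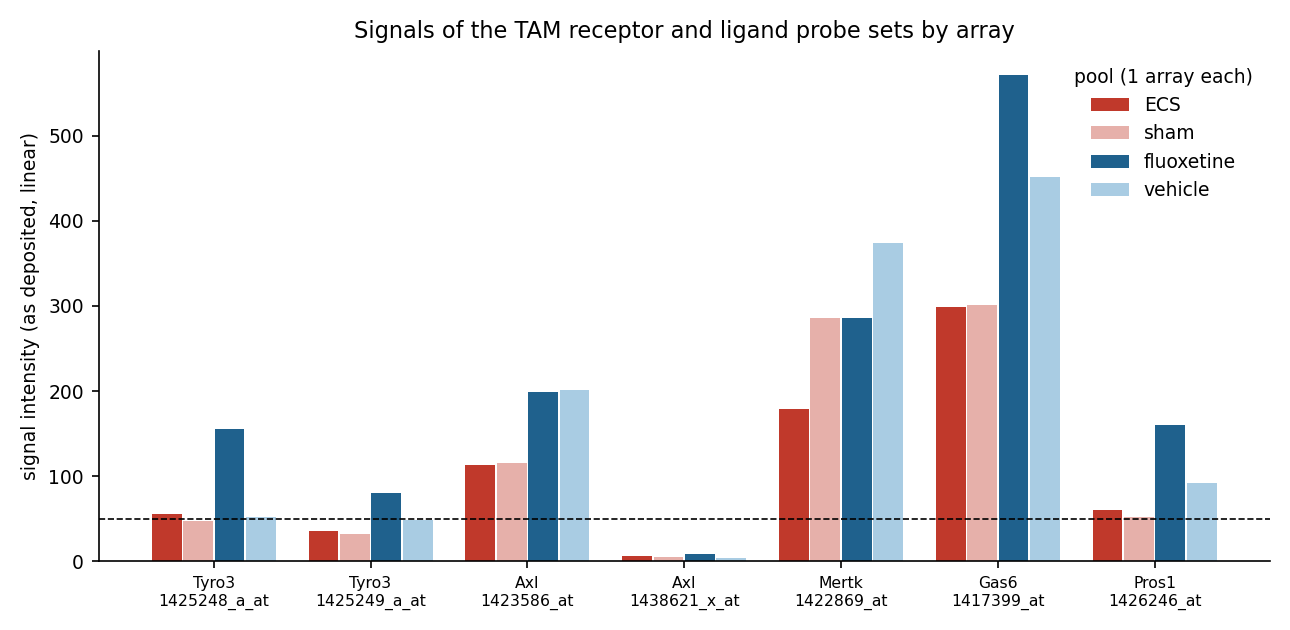
Signal intensity as deposited (linear axis) of the 7 TAM receptor and ligand probe sets in the ECS, sham, fluoxetine and vehicle pools, 1 bar per array, with a dashed line at 50. Tyro3 1425248_a_at has 155.5 after fluoxetine against 52.3 in the vehicle pool, and 55.4 after ECS against 47.6 in the sham pool. Mertk is lower in each treated pool than in its own control pool. The overall level differs between arrays.

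Among the ligands, Pros1 differed with fluoxetine and Gas6 by less. Pros1 had a signal of 60.0 after ECS and 52.6 in the sham pool, and of 159.9 after fluoxetine and 92.5 in the vehicle pool. Its log2 ratio was 0.79 for fluoxetine, a 1.73-fold difference, and 0.19 for ECS, at a control spread of 0.34. After centring, the fluoxetine pool was above the next highest, the vehicle pool, by 0.67, whereas ECS and vehicle were 0.01 apart. The sham pool was the lowest, 0.31 below vehicle.

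Gas6, the ligand common to all the receptors, had a control spread of 0.18. Its signals were 299.2 after ECS and 300.5 in the sham pool, and 571.0 after fluoxetine and 451.1 in the vehicle pool. The log2 ratio of -0.01 for ECS was within the control spread, and the ratio of 0.34 for fluoxetine was above it but under 1.5-fold. After centring, the fluoxetine ratio was 0.22, and the 4 levels were separated by steps of 0.08, 0.02 and 0.20, so that none but the last exceeded the control spread.

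Of the values as deposited, 2 of the 5 TAM probe sets past the filter, those of Tyro3 and Pros1, were at least 1.5-fold higher with fluoxetine and 0 were lower. Over all probe sets, 8.65% were higher and 3.11% lower by this size. Tyro3 was chosen for its higher signal with fluoxetine, so that its place in this count is no result. With ECS, 0 of the 5 were higher and 1, that of Mertk, was lower, against 3.81% and 6.52% of all probe sets. After centring, Tyro3 and Pros1 were still counted as higher with fluoxetine (5.69% of all probe sets) and 0 as lower (4.94%), while with ECS 0 were higher (5.31%) and 0 lower (4.16%), Mertk being just under the limit. With the control arrays exchanged, Tyro3 was higher with both treatments (6.86% of all probe sets for ECS, 6.9% for fluoxetine), Pros1 was higher and Mertk lower with fluoxetine (6.05%), and 0 were lower with ECS (5.01%). Both treated pools were above both control pools for Tyro3 and Gas6 on the centred scale, as for 24.2% of all probe sets. Whether the response of any of the 5 genes differed between ECS and fluoxetine was not tested.

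**Figure D2:**
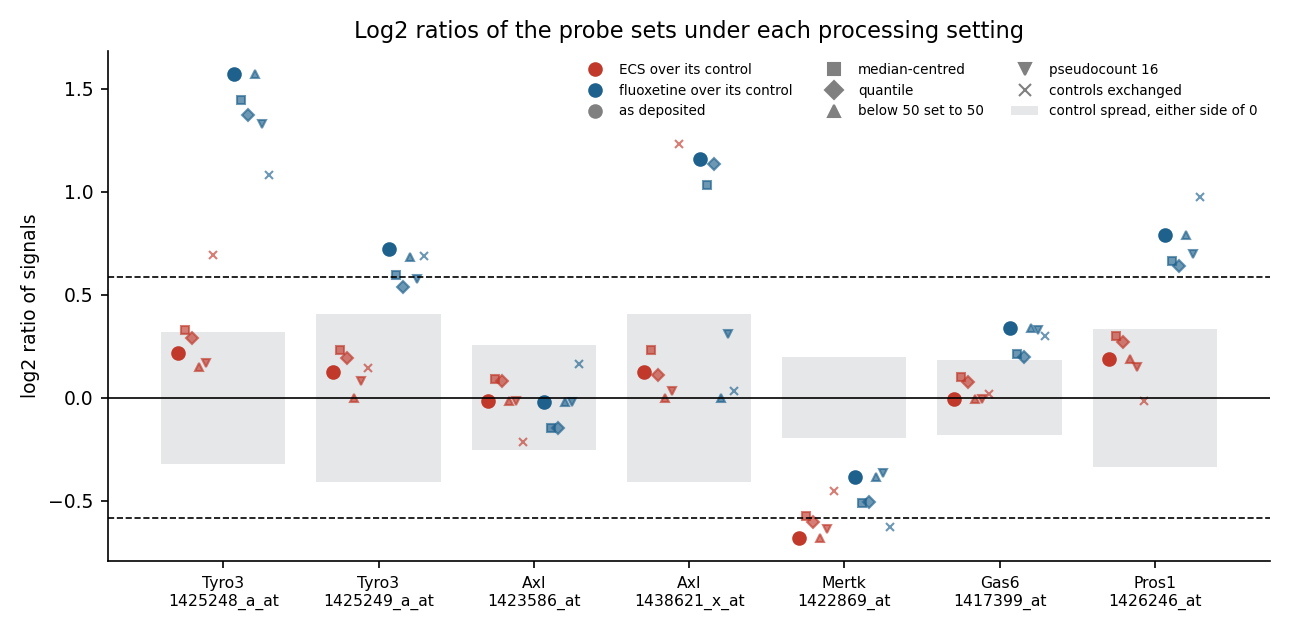
Log2 ratio of signals for ECS over sham (red) and fluoxetine over vehicle (blue) of each probe set, as deposited (large circles) and under 5 other settings, with the control spread as a grey band and dashed lines at 1.5-fold. Tyro3 1425248_a_at (1.57 as deposited, 1.08 with the control arrays exchanged) and Pros1 (0.79) lie above the upper line for fluoxetine under every setting shown, and Mertk lies below 0 under every setting. Tyro3 was chosen on its fluoxetine ratio, so that its place is no result. The other Tyro3 probe set, 1425249_a_at, lies under that line with quantile normalization (0.537) and with the pseudocount (0.575).

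**Figure D3:**
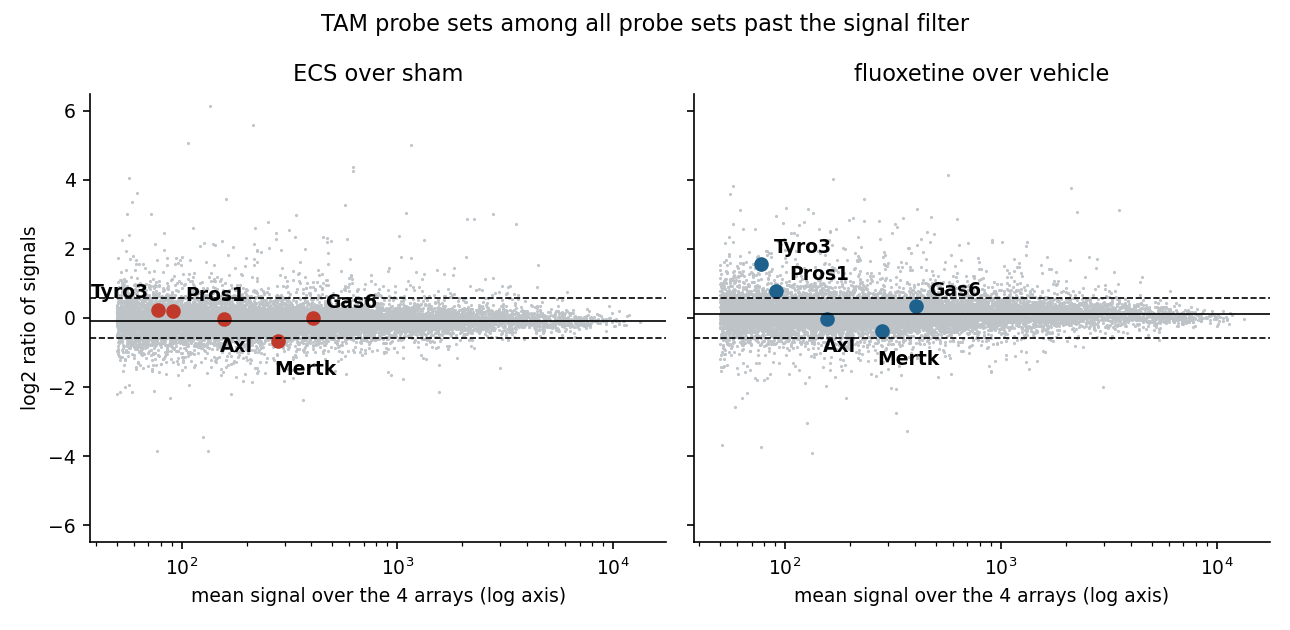
Log2 ratio against mean signal (log axis) for ECS over sham (left) and fluoxetine over vehicle (right), with all 13422 probe sets past the filter in grey and the 5 TAM probe sets marked. Solid lines are the medians (-0.10 and 0.12) and dashed lines 1.5-fold, and Tyro3 (1.57) and Pros1 (0.79) lie above the upper line with fluoxetine at mean signals where the control spread is 0.32 and 0.34.

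To show the start-site regions of the 3 genes that passed 1.5-fold in either comparison, the 250 bases before the RefSeq start (GRCm38.p6) are given 5′ to 3′, with GC boxes (GGGCGG on either strand, overlapping matches included) in capitals. Tyro3 lies at chr2:119799264-119799513 (plus strand), Pros1 at chr16:62854057-62854306 (plus strand) and Mertk at chr2:128698665-128698914 (plus strand).
Tyro3: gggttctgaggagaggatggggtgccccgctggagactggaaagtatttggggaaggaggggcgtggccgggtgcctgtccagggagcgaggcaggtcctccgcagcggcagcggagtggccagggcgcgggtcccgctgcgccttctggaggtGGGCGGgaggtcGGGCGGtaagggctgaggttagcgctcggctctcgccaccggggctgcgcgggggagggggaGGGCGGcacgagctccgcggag
Pros1: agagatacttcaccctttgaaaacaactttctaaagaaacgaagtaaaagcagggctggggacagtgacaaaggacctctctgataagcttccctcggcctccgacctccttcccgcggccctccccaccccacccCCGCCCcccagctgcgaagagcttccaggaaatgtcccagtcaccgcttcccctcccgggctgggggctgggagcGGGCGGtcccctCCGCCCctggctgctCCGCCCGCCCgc
Mertk: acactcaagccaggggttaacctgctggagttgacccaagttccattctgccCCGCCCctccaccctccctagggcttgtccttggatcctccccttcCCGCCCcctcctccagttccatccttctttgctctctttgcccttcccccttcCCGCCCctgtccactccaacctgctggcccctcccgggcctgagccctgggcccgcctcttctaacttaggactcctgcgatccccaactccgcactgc
The window of Tyro3 held 3 GC boxes, that of Pros1 5 and that of Mertk 3, and those of Axl and Gas6 held 1 and 4, so that all 5 genes had at least 1, as had 32.7% of 32851 windows of this length. The GC content was 73.2% for Tyro3, 64.4% for Pros1 and 63.6% for Mertk, against a median of 52.4% over all windows. The cyclic AMP response core TGACGT (6.47% of all windows), the AP-1 site TGANTCA (6.75%), the CCAAT box (33.8%) and TATAAA (12.4%), read on both strands, had no match in the 5 windows. The E-box CAGCTG had 1 match, in Pros1, and was present in 13% of all windows. GC boxes were thus present before genes with higher, lower and level signals alike, and a match of letters is no evidence of a bound site.

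The genes with the pattern most like that of Tyro3 were found by the Euclidean distance over 3 centred log2 ratios (ECS over sham, fluoxetine over vehicle and sham over vehicle) across the 4 arrays. They were Mapk6, an atypical MAP kinase, at a distance of 0.10, Pdcd6ip, a protein of the endosomal sorting machinery, at 0.18, the elastic fiber protein gene Fbln5 at 0.20, the matricellular protein gene Ccn2 at 0.24 and the proteoglycan gene Dcn at 0.26. Mapk6 had a signal of 116.7 after ECS and 103.2 in the sham pool, and of 322.4 after fluoxetine and 115.5 in the vehicle pool. Dcn, the decorin gene, had 123.7 and 106.0 in the ECS and sham pools and 299.0 and 119.9 in the fluoxetine and vehicle pools. Their fluoxetine ratios follow from how they were found and are no result. Fbln5 and Ccn2 reached the signal filter only through the fluoxetine array, and with the floor of 50 their fluoxetine ratios were 0.89 and 1.26. The match of Pdcd6ip rests on 1 probe set, since its 2 brighter ones had 0.43 and 0.26 with fluoxetine.

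Of 40 other receptor tyrosine kinases listed, 19 had a brightest probe set past the filter. With fluoxetine 3 of them were higher and 1 was lower by 1.5-fold, and with ECS 0 were higher and 2 lower, while their median log2 ratio was 0.03 and -0.01. Over all 7935 genes, 675 were higher and 259 lower with fluoxetine and 305 higher and 513 lower with ECS, at medians of 0.12 and -0.10. After centring, 1 of the kinases was higher and 1 lower with each treatment, so that the larger number of higher genes with fluoxetine was not kept. The centred counts over all genes were 462 higher and 407 lower with fluoxetine, and 424 and 332 with ECS. Ddr1, a collagen receptor, had a ratio of 0.75 with fluoxetine, with signals of 3309.2 after fluoxetine and 1972.4 in the vehicle pool. The other 4 Ddr1 probe sets past the filter had 1.11, 1.00, 0.28 and -0.46. Kdr, the VEGF receptor, had 0.64 for fluoxetine and 0.55 for ECS, with sham above vehicle by 0.48 after centring. Fgfr2, a receptor of fibroblast growth factors, had -0.71 for ECS and 0.03 for fluoxetine. These ratios stand beside that of 1.57 for Tyro3, which had been chosen for it.

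Among 15 measured signalling partners of the TAM receptors, 2 were higher and 0 lower with fluoxetine, and 1 was higher and 1 lower with ECS, at medians of 0.09 and 0.00. The counts over all 7935 genes were 675 and 259 with fluoxetine, and 305 and 513 with ECS. After centring, the counts of the partners were the same, beside 462 and 407 of all genes with fluoxetine and 424 and 332 with ECS. Grb2, the adaptor that couples activated receptor kinases to Ras, had 1596.3 after fluoxetine and 600.5 in the vehicle pool, a log2 ratio of 1.41, and 539.1 after ECS and 421.6 in the sham pool, a ratio of 0.36. Its other probe set had 0.92 and -0.02. Pik3r1, a regulatory subunit of the phosphoinositide 3-kinase that TAM receptors recruit, was higher with both treatments, at 0.91 for ECS and 0.81 for fluoxetine, while its other 2 probe sets had 0.26 and 0.94 for ECS and 0.24 and 0.52 for fluoxetine. For the brightest Pik3r1 probe set, sham was below vehicle by 0.37 after centring, at a control spread of 0.18. Plcg2, a phospholipase, had -1.52 for ECS and 0.07 for fluoxetine, but its sham pool was above the vehicle pool by 1.03 after centring. Adam10 and Adam17, proteases that shed TAM receptors from the cell surface, were under 1.5-fold in both comparisons by their brightest probe sets. Socs1 and Socs3, suppressors of cytokine signalling that TAM receptors induce in immune cells, were below the signal filter. Socs3 nevertheless had a signal of 118.5 after fluoxetine and 13.5 in the vehicle pool, against 15.5 after ECS and 14.6 in the sham pool. With the floor of 50 its fluoxetine ratio was 1.24, and its other 2 probe sets, with 82.6 against 23.2 and 44.6 against 13.9 in the fluoxetine and vehicle pools, were highest after fluoxetine as well.

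For the vitamin K cycle and the anticoagulant system of proteins C and S, 4 of 13 genes were measured past the filter, and 1 was higher with fluoxetine and 0 with ECS, while 0 were lower. Their medians were 0.26 for fluoxetine and -0.10 for ECS. Among all 7935 genes, 675 were higher and 259 lower with fluoxetine, and 305 and 513 with ECS. Thbd, the thrombomodulin gene, had 138.6 after fluoxetine and 75.3 in the vehicle pool, a ratio of 0.88, and -0.45 for ECS, but with sham above vehicle by 0.82. Calu, a calcium-binding protein of the secretory pathway, had 0.32 and 0.02 for fluoxetine and ECS, and Nqo1, a quinone reductase, 0.21 and -0.23. The carboxylase gene Ggcx, whose product modifies Gas6 and protein S, was below the filter, and Vkorc1, the vitamin K reductase, was level at -0.06 for fluoxetine and 0.12 for ECS.

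Of 18 measured genes of phosphatidylserine exposure, recognition and engulfment, 6 were higher and 1 was lower with fluoxetine, and 0 were higher and 1 was lower with ECS, at medians of 0.28 and -0.04. Of all 7935 genes, 675 were higher and 259 lower with fluoxetine, and 305 and 513 with ECS. Genes of the list that were higher with fluoxetine included Elmo1, an activator of Rac in engulfment, at 0.99, Anxa5, which binds phosphatidylserine, at 0.98, and Adgrb1, a receptor for phosphatidylserine, at 0.96. Their ECS ratios were 0.07, 0.34 and 0.38, and sham was above vehicle by 0.54 for Elmo1. The gene that was lower with both treatments was Mfge8, which encodes a secreted protein that bridges phosphatidylserine to integrins as Gas6 does to the TAM receptors. Mfge8 had 453.0 after ECS and 853.5 in the sham pool, and 703.2 after fluoxetine and 1216.3 in the vehicle pool, which gave a log2 ratio of -0.91 for ECS and -0.79 for fluoxetine. Its control spread was 0.15, and its centred ratio of sham to vehicle was -0.01. It was thus lower in both treated pools, like Mertk. After centring, 3 genes of this list were higher and 1 lower with fluoxetine, and 1 was higher and 1 lower with ECS. The counts over all 7935 genes were then 462 and 407 with fluoxetine, and 424 and 332 with ECS.

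Markers of the cells that carry TAM receptors were set beside these values. Each list count stands beside 675 higher and 259 lower of all 7935 genes with fluoxetine, and 305 and 513 with ECS. Of 16 measured microglia markers, 6 were higher and 0 lower with fluoxetine, and 1 was higher and 2 lower with ECS, with medians of 0.44 and -0.13. Their summed signal was 11749.1 after fluoxetine and 8524.7 in the vehicle pool, and 5640.0 after ECS and 6235.2 in the sham pool. Olfml3 had 1.05 for fluoxetine, with sham above vehicle by 0.49 after centring, Cd68, a lysosomal protein, 0.95, and C1qc, a complement subunit, 0.82. P2ry12, a receptor of surveying microglia, had -0.60 for ECS and -0.23 for fluoxetine. Cx3cr1 and Tmem119, from the same list, had -0.51 and -0.13 for ECS but 0.22 and 0.15 for fluoxetine. All 15 astrocyte markers were measured, of which 3 were higher and 0 lower with fluoxetine and 1 was higher and 1 lower with ECS, and their summed signal was 34623.7 and 30867.9 in the fluoxetine and vehicle pools and 20504.3 and 22671.2 in the ECS and sham pools. Gfap, the astrocyte filament protein, had 2.43 and 2.24 for fluoxetine and ECS, Aqp4, a water channel, 0.86 and 0.34, and Slc1a3, a glutamate transporter, 0.05 and -0.64. The log2 ratio of the summed signals was 0.46 for microglia and 0.17 for astrocytes with fluoxetine and -0.14 for both with ECS. The medians of all probe sets, 0.12 and -0.10, are contained in these ratios, and those of astrocytes lay close to them. After centring, 5 microglia and 2 astrocyte markers were higher with fluoxetine, and 1 of each was higher and 0 lower with ECS. On that scale, 462 of all 7935 genes were higher and 407 lower with fluoxetine, and 424 and 332 with ECS. The part of these cell types in the Mertk values was not tested.

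Markers of vascular leptomeningeal and choroid plexus cells were in part higher with fluoxetine as well. Of 6 measured past the filter, 3 were higher and 1 lower with fluoxetine, and 2 were higher and 1 lower with ECS, and their summed signal was 1151.8 after fluoxetine and 686.8 in the vehicle pool, and 612.2 after ECS and 543.4 in the sham pool. Col3a1, a fibrillar collagen, had 2.47 for fluoxetine and 1.67 for ECS, Col1a2 1.58 and 1.02, and Igf2 -0.04 and -1.35. Col3a1 reached the signal filter only through the treated arrays, with 42.5 in the sham pool and 39.9 in the vehicle pool. With low signals floored, its ratios were 2.15 for fluoxetine and 1.44 for ECS, so that it was still counted as higher. Its sham pool was above the vehicle pool by 0.59 after centring. The other Col3a1 probe set, with signals of 6.1 to 18.3, was below the filter. The choroid plexus marker Ttr had signals of 15.2 to 18.6 on all arrays. Of 12 markers of endothelial cells and pericytes, 2 were higher and 0 lower with fluoxetine and 0 differed by 1.5-fold with ECS, and their summed signal was 3975.5 and 3393.7 in the fluoxetine and vehicle pools and 2430.2 and 2442.3 in the ECS and sham pools. Vwf, the von Willebrand factor, counted as higher with fluoxetine, had a signal of 145.0 after fluoxetine and 53.7 in the vehicle pool, and of 44.9 after ECS and 46.4 in the sham pool, and reached the signal filter only through the fluoxetine array. Kdr is given above, and Esam, a junctional protein, had 0.56 and 0.23. The part of these cells in the Tyro3 values was not tested.

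Markers of the granule cells, the principal neurons of the labelled tissue, were measured and in part lower. Some of them, such as Calb1 and Tdo2, are genes the study itself followed in these samples, so that their direction is not independent evidence. Of 16 granule cell markers 9 were measured, and 5 were lower with fluoxetine and 6 with ECS, with 0 higher, at medians of -1.10 and -0.67. After centring, 5 were lower with fluoxetine and 4 with ECS, against 407 and 332 of all 7935 genes. Tdo2 had -3.28 and -2.39 for fluoxetine and ECS, and Dsp, desmoplakin, -1.26 and -0.71. Calb1, which encodes calbindin, had 1398.6 after ECS and 3813.5 in the sham pool, and 1353.2 after fluoxetine and 5395.5 in the vehicle pool. Prox1, the transcription factor that defines granule cells, had signals of 98.3 after ECS and 112.4 in the sham pool, and 179.7 after fluoxetine and 154.5 in the vehicle pool. The higher Tyro3 signal in the fluoxetine pool, in which 5 of 9 granule cell markers were lower, is the value Tyro3 was chosen on and no result. For ECS, with 6 of 9 lower as deposited, the log2 ratio of Tyro3 was 0.22 at a control spread of 0.32. The part of these cells in the TAM values was not tested.

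**Figure D4:**
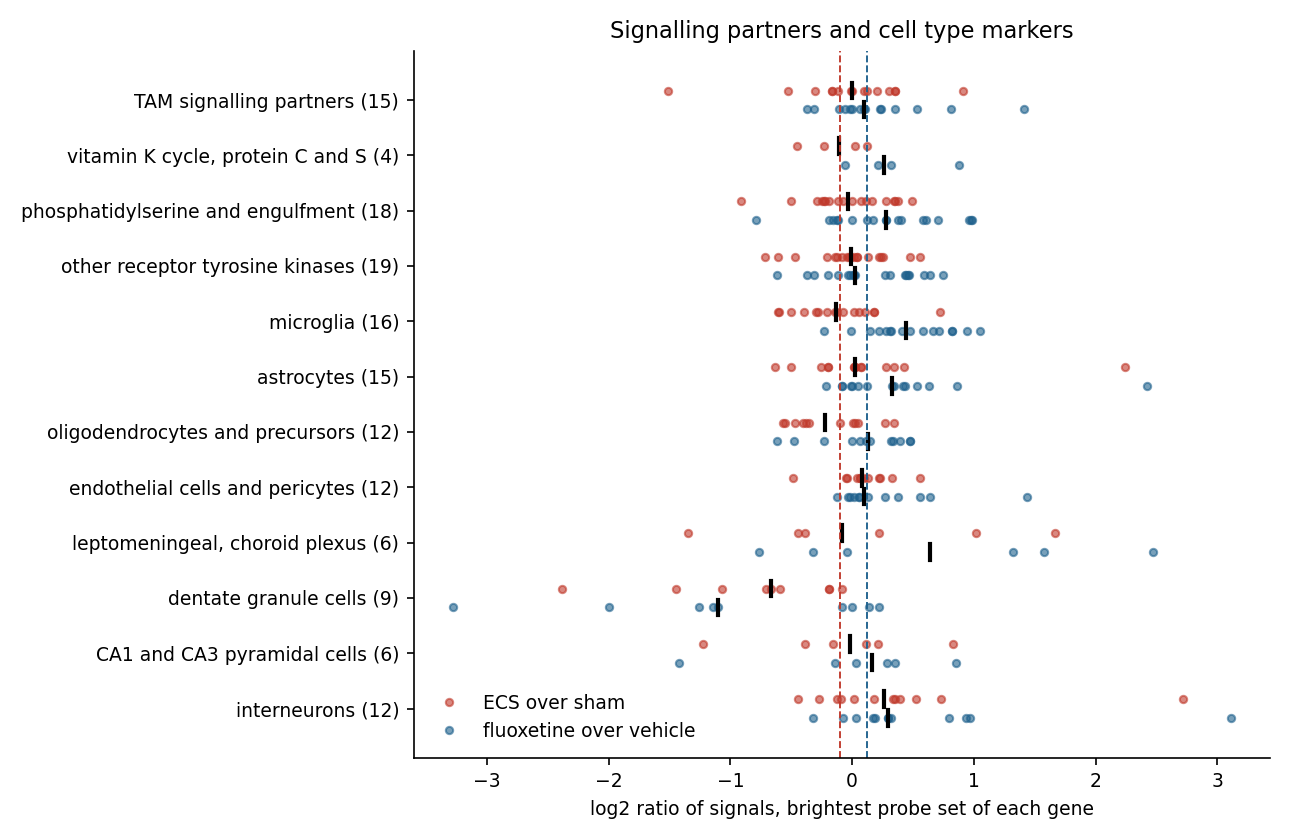
Log2 ratios for ECS over sham (red) and fluoxetine over vehicle (blue) of the brightest probe set of each measured gene in 12 lists, with the number of genes in parentheses, black bars for list medians and dashed lines for the medians of all probe sets (-0.10 and 0.12). The microglia median is 0.44 for fluoxetine and -0.13 for ECS, and the granule cell medians are -1.10 and -0.67.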

How the data were processed

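The authors computed the deposited signal intensities with Affymetrix microarray suite 5.0 (MAS5), whose statistical algorithm summarizes each probe set as 1 value on a linear scale. The RNA of each group was pooled on 1 array, and the scaling is not given in the sources used here. Ratios were computed with Python 3.11.15, numpy 2.4.6 and pandas 2.3.3, and plots were drawn with matplotlib 3.10.9. The 64 control probe sets were left out, signals of 0 were replaced by 0.1, and a probe set was kept where its average over the arrays was 50 or more. The control spread is a scaled median absolute deviation, taken from sham against vehicle in a window of 500 probe sets, and for dimmer probe sets it is that of the dimmest window past the filter, which may be too small. Each gene of a list is represented by its brightest probe set past the filter, and list genes without a probe set of that name in the platform annotation were not analysed here. Members and lists were chosen with earlier results of these data known, and no test was run. The text names all TAM probe sets, up to 3 genes per list with the largest ratios (signals floored at 50) and the 5 genes nearest to Tyro3. Mfge8, Socs1, Socs3, Adam10, Adam17, Ggcx, Vkorc1, P2ry12, Cx3cr1, Tmem119, Prox1 and Ttr, and the genes nearest to the other TAM members, were named after their values were seen. Gene symbols came from the platform annotation and the 5 TAM symbols matched the current RefSeq ones. The steps were tested on simulated arrays. Alternatives were median-centring, quantile normalization, a floor of 50, a pseudocount of 16, exchanged control arrays, other signal filters (none, at least 1 array at 50, a mean of 200), sizes of 1.2-fold and 2-fold, and the mean over probe sets. The number of arrays, 1 per group, limits the precision.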

Additional observations from a re-analysis of the deposited data

How the results depend on the processing

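Of 114 values recomputed for the TAM genes under the alternatives, 95 moved by less than the control spread or, for counts, by no more than 1.5 times, and no value past 1.5-fold changed its sign. Part of this tally was fixed in advance. Median-centring shifts all ratios of a comparison by the same amount, which was below every control spread of the members. The floor of 50 cannot change a probe set whose signals are all above it. The tally is thus no measure of robustness. With the control arrays exchanged, the log2 ratios were 0.70 (ECS) and 1.08 (fluoxetine) for Tyro3 1425248_a_at, -0.45 and -0.63 for Mertk, and 1.23 and 0.034 for the dim Axl probe set 1438621_x_at, and 1 TAM probe set was higher and 0 lower with ECS and 1 was lower with fluoxetine. By construction, these values also carry what sets sham apart from vehicle. The fluoxetine ratio of that Axl probe set was 0.00 with the floor of 50 and 0.31 with the pseudocount. Averaged over probe sets, the fluoxetine ratios were 1.15 for Tyro3 and 0.57 for Axl. After median-centring 0 TAM probe sets were lower with ECS, and at 2-fold 0 were lower with ECS and 1 was higher with fluoxetine. At 1.2-fold 1 was lower with fluoxetine. With no signal filter 4 were higher with fluoxetine, and with a mean signal of at least 200 there were 0, since Tyro3 and Pros1 are dimmer than that. For the context lists, 540 of 738 recomputed counts and medians stayed within 1.5 times or 0.1 on the log2 scale. No paired analysis was possible because each group has 1 array. Tyro3 and Pros1 lie at low signals, with control spreads of 0.32 and 0.34 against 0.18 for Gas6, and no replicate error exists for any value.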

Other observations

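Markers of cell types not described above differed in other ways. Each list count again stands beside 675 higher and 259 lower of all 7935 genes with fluoxetine, and 305 and 513 with ECS. Of 12 measured oligodendrocyte and precursor markers, 0 were higher and 1, Pdgfra, was lower with fluoxetine (-0.62), and 0 differed by 1.5-fold with ECS, at medians of 0.13 and -0.23. Cldn11, a tight junction protein of myelin, had 0.34 for fluoxetine and -0.55 for ECS, and Ugt8a, which makes a myelin lipid, 0.48 and 0.27. Of 6 markers of CA1 and CA3 pyramidal cells, 1 was higher and 1 lower with each treatment, at medians of 0.16 for fluoxetine and -0.02 for ECS, with Pou3f1 at -1.42 and -1.23 for fluoxetine and ECS, Bok at 0.86 and 0.83 and Wfs1 at -0.14 and -0.39. Pou3f1 reached the signal filter only through the vehicle array and had 19.2 after ECS and 44.9 in the sham pool, both below 50, so that with the floor of 50 its ECS ratio was 0.00, 0 markers were lower with ECS and the ECS median was 0.06. Of 12 interneuron markers, 4 were higher and 0 lower with fluoxetine and 2 were higher and 0 lower with ECS, at medians of 0.29 and 0.26. Npy, which granule cells also express after seizures, had 3.11 for fluoxetine and 2.72 for ECS, Gad2 0.97 and 0.73, and Vip 0.93 and 0.36. For Vip, sham was above vehicle by 0.45 after centring.

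The genes nearest to the other TAM members over the same 3 centred ratios differed from those of Tyro3. For Mertk the nearest was Gstm1, a glutathione transferase, at a distance of 0.04, with 895.1 after ECS and 1460.9 in the sham pool, and 1419.2 after fluoxetine and 1874.4 in the vehicle pool. For Pros1 it was Pias2, at 0.08, followed by the complement gene C1qb, at 0.09, with 1290.5 after fluoxetine and 732.4 in the vehicle pool. For Axl and Gas6, whose ratios are small, the nearest were Tbcel and Etv5 at 0.01 and 0.02.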
